A study of Mus musculus with 12 samples.

Results

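The interleukin 17 (IL-17) ligand, receptor and adaptor genes described here are a group of 9 named genes among the 57010 genes of a bulk RNA-seq count table from mouse cerebellar crus 1. They were chosen by name, as the ligands Il17a and Il17d, the receptor chains Il17ra, Il17rb, Il17rc, Il17rd and Il17re, and the adaptors Traf3ip2 and Traf6. All 9 were in the table, and 8 of the 9 had enough counts to be tested. Il17a had none.

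The table held 12 libraries in 3 groups of 4. FVB mice, the inbred background strain, were given saline. Mice with a knock out of Fmr1, the gene that is silenced in fragile X syndrome, were given saline (their titles call them sham), and a second group of Fmr1 knock out mice was given poly(I:C), which is a double-stranded RNA made to imitate that of viruses, by intraperitoneal injection. The sources used here give no dose, time after injection, age or sex. An FVB group with poly(I:C) was not analysed here, so the response to poly(I:C) was measured in knockout mice alone. No label says that each library is its own animal, and the p-values therefore measure only the spread among these libraries, which may be technical. The series title names IL-17A from cerebellar microglia as its subject, and the 9 genes ask whether the transcripts that make, receive and relay that signal differed with genotype or with poly(I:C).

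IL-17 cytokines act through paired receptor chains. Il17ra encodes the shared chain, and the partner chain sets which ligand is bound: Il17rc for IL-17A and IL-17F, Il17rb for IL-25, and Il17re for IL-17C. Il17rd encodes a related chain, also known as SEF, that was first described as an inhibitor of fibroblast growth factor signalling. Inside the cell the receptor tails recruit Act1, the product of Traf3ip2, which in turn recruits TRAF6, a ubiquitin ligase that leads to NF-kB and MAP kinase activity. IL-17A is made mainly by type 17 T cells and gamma delta T cells, and neurons and glia of the brain carry its receptor.

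Depth was 35155420 to 48717119 counts per FVB library, 38723699 to 50248411 per saline knockout library and 39352860 to 56390207 per poly(I:C) knockout library. Fmr1 was at 85.5 to 108 CPM (counts scaled to library size, with the TMM method) in FVB, against 27.9 to 36.7 CPM in saline knockout and 33.9 to 36.0 CPM in poly(I:C) knockout libraries, so the labels hold for genotype. Ttr, which marks the choroid plexus, was at 1.63 to 65.3 CPM in 9 libraries, and at 4156 CPM in saline knockout 2, 2167 CPM in poly(I:C) knockout 2 and 2632 CPM in poly(I:C) knockout 3. These 3 libraries stand apart from the others, and the calls named below are also given without them. Genes were tested with edgeR's quasi-likelihood test over 19166 genes, and called at an adjusted p under 0.05 (Benjamini-Hochberg over all genes tested).

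Among the ligands, Il17a (ENSMUSG00000025929, chromosome 1) had 0 counts in each of the 12 libraries. A count of 0 allows a level of up to 0.0188 CPM over the 4 FVB libraries, 0.0179 CPM over those of the saline knockout and 0.0159 CPM over those of the poly(I:C) knockout (3 counts per group, for counting error only), so Il17a RNA was not detectable at this depth in any group.

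Il17f, Il17b and Il17c, which encode ligands of the same family and were listed beside the 9 genes, were close to that limit. Il17f had 4, 0, 0 and 0 counts in FVB libraries 1 to 4, 0, 2, 0 and 2 in the saline knockout, and 0, 0, 1 and 0 in the poly(I:C) knockout. Il17c, the ligand of the Il17re chain, had 0, 2, 3 and 0 counts in FVB, 0, 0, 1 and 0 in the saline knockout, and 1, 3, 2 and 2 in the poly(I:C) knockout, the group in which each library had a count. Il17b had 2, 0, 0 and 0, then 0, 0, 3 and 1, then 0 in all 4 libraries. In exact two-sided permutation tests of these 3 genes in 3 comparisons (9 tests) the lowest p was 0.0571, for Il17c in the poly(I:C) knockout against the saline knockout (0.514 after adjustment over the 9 tests), where 4 libraries against 4 cannot give a p below 0.0286.

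Il25, which encodes the ligand of the Il17rb chain, passed the filter on low counts with 9 to 30 counts per FVB library, 9 to 25 per saline knockout library and 0 to 29 per poly(I:C) knockout library. Its log2 fold change was -0.26 in the saline knockout against FVB (SE 0.608, adjusted p = 0.926), -0.70 in the poly(I:C) knockout against the saline knockout (SE 0.630, adjusted p = 0.657) and -0.96 in the poly(I:C) knockout against FVB (SE 0.626, adjusted p = 0.408).

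Il17d (ENSMUSG00000050222, chromosome 14), which encodes a ligand known to be expressed in brain, was the IL-17 ligand with the most counts, 169 to 441 per library. It was at 5.29, 8.08, 6.79 and 8.96 CPM in FVB libraries 1 to 4, 4.59, 4.26, 6.92 and 8.51 CPM in saline knockout libraries, and 7.81, 7.15, 5.31 and 7.51 CPM in the poly(I:C) knockout. The 3 groups overlapped, and the spread within FVB and within the saline knockout was about as wide as the whole range. The log2 fold change was -0.26 in the saline knockout against FVB (95% interval -0.71 to 0.20, adjusted p = 0.713) and 0.19 in the poly(I:C) knockout against the saline knockout (-0.26 to 0.65, adjusted p = 0.735).

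Levels of the 8 tested members were compared per kilobase of exon (CPM per kb, mean ± SD over all 12 libraries). Il25, which was also tested, was left out. The order was Il17d at 5.31 ± 1.22, Traf6 at 3.82 ± 0.409, Traf3ip2 at 1.61 ± 0.148, Il17ra at 1.60 ± 0.266, Il17rc at 1.43 ± 0.229, Il17re at 0.637 ± 0.173, Il17rd at 0.361 ± 0.0918 and Il17rb at 0.353 ± 0.0824 CPM per kb. Neighbours in that order overlapped in range except at 2 steps, from Traf6 down to Traf3ip2 and from Il17rc down to Il17re. So the shared chain Il17ra, its IL-17A partner Il17rc and the adaptor Traf3ip2 lay at levels per kilobase that overlapped, and the chains for other ligands lay below all 3.

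**Figure D1:**
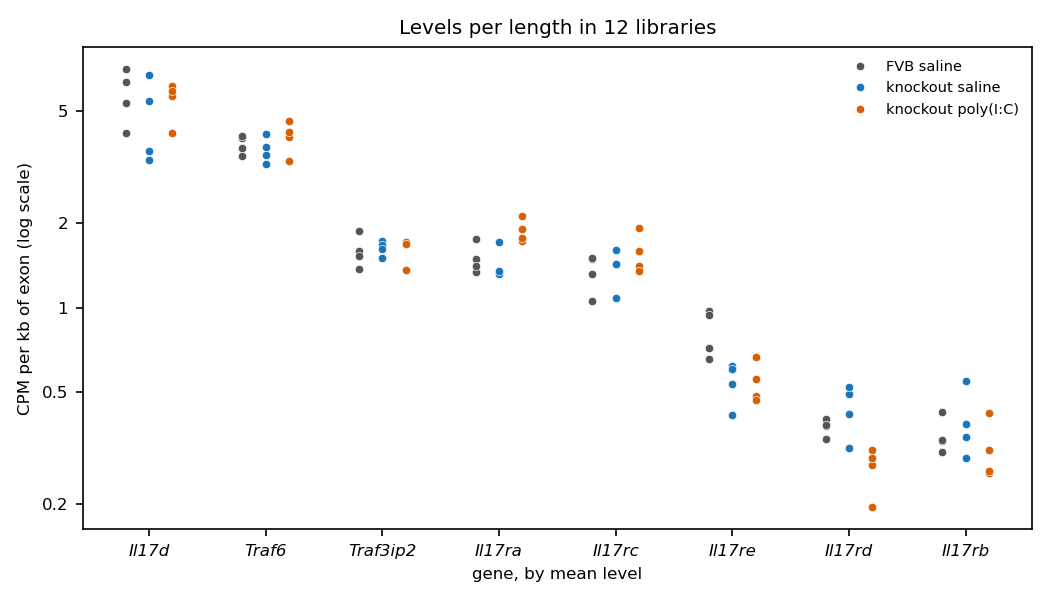
Level of the 8 tested members per kilobase of exon (CPM per kb, log scale) in each of the 12 libraries, coloured by group and ordered by mean. Il17d and Traf6 sit highest, Traf3ip2, Il17ra and Il17rc form a middle band above 1, and Il17re, Il17rd and Il17rb lie below 1 in every library.

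Across the 8 tested members the calls were few. None passed the test in the saline knockout against FVB, where 1.53% of all tested genes passed. There 1 member had an unadjusted p under 0.05, as did 12% of all tested genes, DESeq2 called 1 (Il17re) and limma-voom called 0. In the poly(I:C) knockout against the saline knockout 1 member fell and none rose, where 2.87% of all tested genes passed and 1.06% passed as lower, and 2 members had an unadjusted p under 0.05, as did 15.5% of all tested genes. In the poly(I:C) knockout against FVB none passed, where 7.05% of all tested genes passed. There 3 members had an unadjusted p under 0.05, as did 21.3% of all tested genes, DESeq2 called 1 (Il17re) and limma-voom called 0. The median log2 fold change of the 8 members was -0.02, 0.08 and -0.02 in these comparisons, beside 0.00 over all tested genes in each. The poly(I:C) comparison with the saline knockout and that of the saline knockout with FVB share the saline knockout libraries, so their values are given side by side and not correlated.

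**Figure D2:**
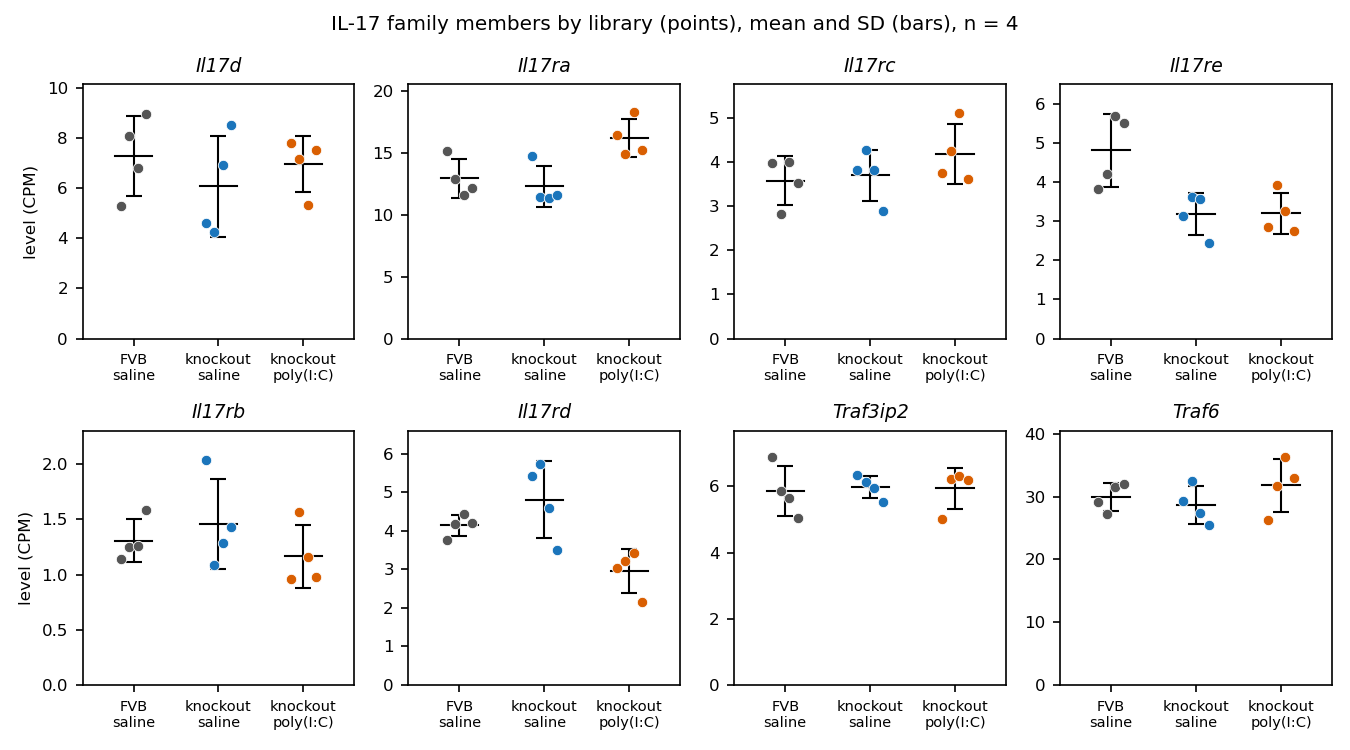
Level (CPM, axes from 0) of the 8 tested members in each library (points), with the mean and SD of each group of 4 (bars). By group mean, Il17rd is lowest in the poly(I:C) knockout, Il17ra is highest there and Il17re is highest in FVB. Il17ra and Il17re overlap between the poly(I:C) knockout and FVB, and Il17rd overlaps between FVB and the saline knockout. The other 5 genes overlap between all groups.

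Il17rd was the one member that passed the test with poly(I:C): its RNA fell by 38.5% in the poly(I:C) knockout against the saline knockout. Il17rd (ENSMUSG00000040717, chromosome 14, plus strand) was at 3.75, 4.16, 4.42 and 4.21 CPM in FVB libraries 1 to 4 (132 to 218 counts), 5.42, 5.72, 4.59 and 3.50 CPM in the saline knockout (178 to 227 counts), and 3.03, 3.21, 3.43 and 2.15 CPM in the poly(I:C) knockout (99 to 171 counts). All 4 poly(I:C) libraries lay below all 4 saline knockout libraries and below all 4 FVB libraries, although saline knockout 4, at 3.50 CPM, was only just above poly(I:C) knockout 3. The knockout groups were free of overlap for 9.75% of the tested genes, and the poly(I:C) knockout and FVB for 14.2%. The log2 fold change was -0.70 (SE 0.182, 95% interval -1.08 to -0.32, adjusted p = 0.0430). Against FVB it was -0.49 (SE 0.183, 95% interval -0.87 to -0.10, adjusted p = 0.121), and the saline knockout against FVB gave 0.21 (SE 0.181, adjusted p = 0.716). With the 3 libraries high in Ttr left out, the difference from FVB was -0.67 (adjusted p = 0.163).

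The Il17rd call was close to its threshold. It ended in 9 of the 12 fits that left out 1 library, with adjusted p from 0.0555 to 0.139: those without FVB 3 or 4, saline knockout 1, 2 or 3, or any of the 4 poly(I:C) libraries. It also ended with limma-voom (adjusted p = 0.0608), with only the 2 knockout groups in the fit (0.0783) and without the 3 libraries high in Ttr (log2 fold change -0.79, adjusted p = 0.208, with 3 saline knockout and 2 poly(I:C) libraries left). The log2 fold change stayed negative in all 24 alternatives, from -0.83 to -0.57. None of the 10 tested genes nearest to Il17rd on chromosome 14, 5 on each side, passed the test in this comparison, with log2 fold changes from -0.08 to 0.39.

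The stretch of sequence just upstream of Il17rd is shown because Il17rd is the receptor gene called with poly(I:C). It holds the 190 bases before the first annotated start of the gene, chr14:27038751-27038940 on the plus strand of GRCm38.p6, from RefSeq, which had a promoter for 7 of the 9 members.
Il17rd upstream: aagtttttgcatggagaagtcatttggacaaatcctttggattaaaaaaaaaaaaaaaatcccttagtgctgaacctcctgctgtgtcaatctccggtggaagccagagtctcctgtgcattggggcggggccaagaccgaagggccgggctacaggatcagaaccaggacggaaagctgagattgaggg
Its GC content was 48.9%, beside a median of 51.6% over all windows of the same length. Those windows were the first 190 bases of each promoter. Unlike that of Il17rd, they were not set to end at each gene's own first annotated start. No match was found on either strand for GAAANNGAA (spaced interferon-response elements, present in 5.58% of 32851 such windows), TTCNNNGAA (a STAT motif, in 5.51%), GGGANTTTC (an NF-kB motif, in 0.746%) or TTGCNNAA (a C/EBP motif, in 7.77%). The first 2 motifs can overlap each other. The search describes these letters in this window alone.

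Il17ra, the shared receptor chain, was higher with poly(I:C) in each library, by an amount that did not pass the adjusted test. Il17ra (ENSMUSG00000002897, chromosome 6) was at 15.2, 12.9, 11.6 and 12.2 CPM in FVB, 14.8, 11.5, 11.4 and 11.6 CPM in saline knockout libraries, and 16.5, 14.9, 18.3 and 15.3 CPM in the poly(I:C) knockout, from 443 to 930 counts per library. The lowest poly(I:C) library, at 14.9 CPM, was just above saline knockout 1 at 14.8 CPM and below FVB 1 at 15.2 CPM. The poly(I:C) group was thus clear of the saline knockout by that small margin, and overlapped FVB. Such a separation of poly(I:C) from saline knockout libraries was found for 9.75% of the genes tested. The log2 fold change against the saline knockout was 0.40 (SE 0.114, 95% interval 0.16 to 0.64, adjusted p = 0.0656, higher in 4 of 4 libraries), and that against FVB was 0.33 (SE 0.114, 95% interval 0.09 to 0.56, adjusted p = 0.0963). Between genotypes it was -0.08 (95% interval -0.32 to 0.16, adjusted p = 0.870). The poly(I:C) difference passed under 5 of 24 alternatives. These were DESeq2 (adjusted p = 0.0168), a fit over unfiltered genes (0.0335) and a fit that left out saline knockout 1 (0.0263). The others were a replicate block (0.0486), although no label says that replicate numbers pair the samples, and a looser threshold of 0.1 at the same adjusted p of 0.0656. Without the 3 libraries high in Ttr the log2 fold change was 0.34, with an adjusted p of 0.599.

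**Figure D3:**
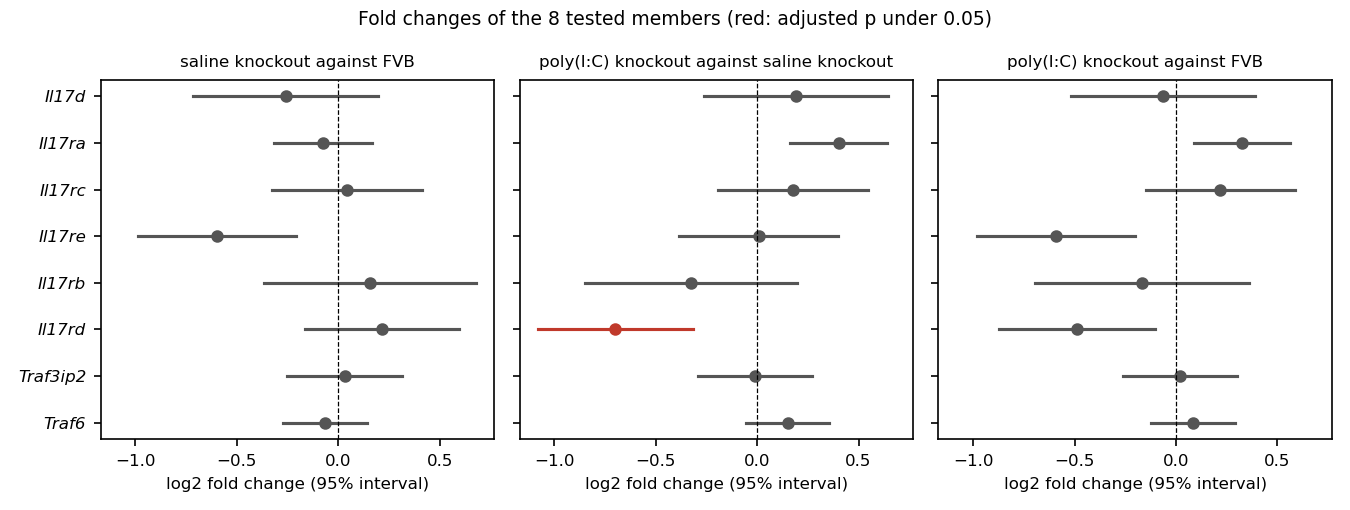
Log2 fold change with its 95% interval for the 8 tested members in the 3 comparisons, with members called at an adjusted p under 0.05 in red. Il17rd at -0.70 in the poly(I:C) comparison is the member called. The intervals of Il17ra there, of Il17re in both comparisons with FVB, and of Il17ra and Il17rd in the poly(I:C) knockout against FVB also lie clear of 0 without passing the adjusted test, and Traf3ip2 and Traf6 sit near 0.

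Il17rc, the chain that joins Il17ra to bind IL-17A, did not differ beyond its spread. Il17rc (ENSMUSG00000030281, chromosome 6) was at 3.98, 2.81, 3.99 and 3.52 CPM in FVB, 3.81, 4.26, 3.82 and 2.89 CPM in saline knockout libraries, and 3.74, 4.24, 5.11 and 3.60 CPM in the poly(I:C) knockout (106 to 211 counts per library), and all 3 groups overlapped. The log2 fold change was 0.04 between genotypes (95% interval -0.33 to 0.41, adjusted p = 0.963) and 0.18 with poly(I:C) in the knockout (-0.19 to 0.55, adjusted p = 0.694). Per kilobase, the ratio of Il17ra to Il17rc was 1.14 ± 0.219, 1.05 ± 0.203 and 1.21 ± 0.140 for FVB, saline knockout and poly(I:C) knockout (SD, n = 4), so the levels of both chains of the IL-17A receptor were within about the same range in each group. The ratio of Il17ra to Il17rd was 4.02 ± 0.788, 3.34 ± 0.696 and 7.15 ± 1.33 in the same order, and its range of 5.89 to 9.03 with poly(I:C) lay above those of FVB (3.33 to 5.14) and the saline knockout (2.55 to 4.22). These ratios combine the values given above and were not tested.

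Il17re, the partner chain for IL-17C, was lower in both knockout groups than in FVB, by amounts that did not pass the adjusted test in either group alone. Il17re (ENSMUSG00000043088, chromosome 6) was at 3.84, 4.21, 5.70 and 5.52 CPM in FVB libraries 1 to 4 (135 to 281 counts), 3.13, 3.63, 3.56 and 2.44 CPM in the saline knockout (120 to 144 counts), and 2.85, 3.92, 3.27 and 2.76 CPM in the poly(I:C) knockout (127 to 183 counts). The saline knockout did not overlap FVB, as for 7.02% of all tested genes, whereas poly(I:C) knockout 2, at 3.92 CPM, was above FVB 1. The log2 fold change against FVB was -0.60 in the saline knockout (SE 0.186, 95% interval -0.99 to -0.21, adjusted p = 0.140) and -0.59 in the poly(I:C) knockout (SE 0.186, 95% interval -0.98 to -0.20, adjusted p = 0.0620). Without the 3 libraries high in Ttr these were -0.67 (adjusted p = 0.157) and -0.78 (adjusted p = 0.0963). With poly(I:C) in the knockout it was 0.01 (95% interval -0.39 to 0.40, adjusted p = 0.992).

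A comparison of the mean of both knockout groups with FVB was added for Il17re after these values were seen, so it is no independent support. It gave a log2 fold change of -0.60 (SE 0.158, 95% interval -0.93 to -0.27, adjusted p = 0.0356), where 4.64% of all tested genes passed and 2.2% passed as lower. That call ended in 7 of the 12 fits that left out 1 library (FVB 3 or 4, saline knockout 1 or 4, poly(I:C) knockout 1, 3 or 4), with adjusted p from 0.0517 to 0.142, and it held without the 3 libraries high in Ttr (-0.72 at an adjusted p of 0.0339). Il17re and Il17rc are next to each other on the same strand of chromosome 6. Il17rc was 0.04 in the genotype comparison and none of the 10 tested genes nearest to Il17re passed it, with values from -0.18 to 1.54.

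Il17rb, the chain for IL-25, had the fewest counts of the tested members, 40 to 78 per library. Il17rb (ENSMUSG00000015966, chromosome 14) was at 1.14, 1.25, 1.26 and 1.58 CPM in FVB, 2.03, 1.08, 1.28 and 1.43 CPM in saline knockout libraries, and 0.957, 1.56, 1.16 and 0.976 CPM in the poly(I:C) knockout, with overlap between all groups. Its log2 fold change was 0.16 between genotypes (95% interval -0.37 to 0.68, adjusted p = 0.877) and -0.33 with poly(I:C) (-0.85 to 0.20, adjusted p = 0.589), intervals that still hold changes of more than 1.5-fold. It shares 141 exon bases with Actr8 on the opposite strand, which was at 67.6 to 69.6 CPM in group means. No source used here says whether reads were counted by strand, so reads of this stretch cannot be told apart.

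Both adaptors varied little between libraries, and neither was called. Traf3ip2 (ENSMUSG00000019842, chromosome 10), which encodes Act1, was at 6.88, 5.86, 5.64 and 5.05 CPM in FVB, 6.33, 6.12, 5.95 and 5.54 CPM in saline knockout libraries, and 5.01, 6.21, 6.32 and 6.21 CPM in the poly(I:C) knockout. All values lay between 5.01 and 6.88 CPM, with a log2 fold change of 0.03 between genotypes (95% interval -0.25 to 0.31, adjusted p = 0.965) and -0.01 with poly(I:C) (-0.29 to 0.27, adjusted p = 0.981). Traf3ip2 shares 293 exon bases, 7.95% of its exon length, with the antisense gene E130307A14Rik, whose group means were 22.4 to 27.3 CPM and whose own log2 fold change with poly(I:C) was -0.29 (adjusted p = 0.0926), so its count carries the same uncertainty about strand.

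Traf6 (ENSMUSG00000027164, chromosome 2), which also serves interleukin 1 and Toll-like receptors, was at 29.1, 27.3, 31.5 and 32.0 CPM in FVB, 29.3, 32.5, 27.3 and 25.4 CPM in saline knockout libraries, and 26.2, 31.8, 36.2 and 33.0 CPM in the poly(I:C) knockout. With more than 1000 counts in every library its intervals were narrow: the log2 fold change was -0.07 between genotypes (95% interval -0.27 to 0.14, adjusted p = 0.865), 0.15 with poly(I:C) in the knockout (-0.05 to 0.36, adjusted p = 0.501) and 0.08 in the poly(I:C) knockout against FVB (-0.12 to 0.29, adjusted p = 0.672).

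Downstream of the adaptors, a list of 30 genes of IL-17 signal transduction (TRAF proteins, TAK1 and IKK kinases, NF-kB, MAP kinases, C/EBP factors and RNA-binding proteins) was measured in full. None of the 30 passed in the saline knockout against FVB, where 1.53% of all tested genes passed. There 1 was at an unadjusted p under 0.05, beside 12% of all tested genes. None passed in the poly(I:C) knockout against FVB, where 7.05% of all tested genes passed. There 7 were at an unadjusted p under 0.05, beside 21.3% of all tested genes. With poly(I:C) in the knockout 1 rose and none fell, where 1.81% of all tested genes passed as higher and 1.06% as lower. That gene was Cebpd, a C/EBP transcription factor gene that responds to many inflammatory signals, which rose from 1.75 ± 0.475 to 4.27 ± 0.958 CPM (SD, n = 4; log2 fold change 1.28, SE 0.242, adjusted p = 0.00414), while FVB was at 2.47 ± 0.647 CPM. Without the 3 libraries high in Ttr none of the 30 passed. The list's medians were 0.04, -0.03 and -0.01 in the 3 comparisons.

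Of 8 negative regulators of IL-17 signalling none passed in any of these comparisons. At an unadjusted p under 0.05 there were 2, 2 and 1, in the order of genotype, poly(I:C) in the knockout and poly(I:C) knockout against FVB, as for 12%, 15.5% and 21.3% of all tested genes. The poly(I:C) pair were Tnip1, a partner of the ubiquitin editor A20, with a log2 fold change of 0.32 (adjusted p = 0.0902), and Zc3h12a, which encodes the RNase Regnase-1, with 0.65 (adjusted p = 0.242). The list's medians were -0.06, 0.09 and 0.03.

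Several genes known as IL-17 targets rose. Of 18 listed, 11 were tested. By adjusted p, 2 rose and none fell in the saline knockout against FVB, and 5 rose and none fell with poly(I:C) in the knockout. In the poly(I:C) knockout against FVB 6 rose and none fell. Of all tested genes 0.814%, 1.81% and 3.81% rose in these comparisons. At an unadjusted p under 0.05 there were 5, 8 and 10 in either direction, beside 12%, 15.5% and 21.3% of all tested genes. The lowest log2 fold changes were -1.09, -1.78 and -0.55. With poly(I:C) in the knockout mean S100a8 went from 2.62 to 0.770 CPM and mean S100a9 from 5.29 to 2.05 CPM, neither called. The list's medians were 0.87, 1.59 and 2.36, and 0.41, 1.32 and 1.66 once the 3 libraries high in Ttr were left out. Many of these genes also respond to interferon, interleukin 1 and other signals, so the list is not specific to IL-17, and passing the filter on low counts through a single high group favours genes that differ.

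With poly(I:C) in the knockout, the lipocalin 2 gene Lcn2, whose protein binds bacterial iron carriers, rose from 2.13 ± 1.53 to 40.8 ± 24.6 CPM (SD, n = 4; log2 fold change 4.26, SE 0.573, adjusted p = 0.00331), with 19.4 to 71.7 CPM in the poly(I:C) libraries. Ptgs2, which encodes the prostaglandin enzyme COX-2, rose from 1.52 ± 0.454 to 5.98 ± 0.943 CPM, and Icam1, an adhesion molecule for leukocytes, from 2.09 ± 0.279 to 6.29 ± 1.35 CPM. The chemokine genes Ccl2 and Ccl7 rose from 0.0965 ± 0.0120 to 1.94 ± 0.884 CPM and from 0.120 ± 0.0883 to 0.856 ± 0.375 CPM. All 5 of these called genes had no overlap between the knockout groups, as for 9.75% of all tested genes. Without the 3 libraries high in Ttr, 3 of the 11 passed in this comparison (Ccl2, Lcn2 and Ptgs2). Calls over all genes fell there as well, as given at the end.

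Against FVB, the same 5 genes were called in the poly(I:C) knockout together with Cxcl1, a neutrophil chemokine gene (log2 fold change 2.24, SE 0.618, adjusted p = 0.0334). Lcn2 was at 0.528 ± 0.0820 CPM in FVB. Without the 3 libraries high in Ttr, 5 of the 11 passed (Ccl2, Ccl7, Lcn2, Ptgs2 and Steap4), while calls over all genes fell. The targets called in the saline knockout against FVB were S100a8 (4.14, SE 0.712, adjusted p = 0.0119) and S100a9 (3.17, SE 0.643, adjusted p = 0.0432), which encode the subunits of calprotectin and are also neutrophil markers. S100a8 alone was called without the 3 libraries. Ccl20 had 0 counts in all 12 libraries, and Il6 had 0, 0 and 8 counts over the 3 groups.

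**Figure D4:**
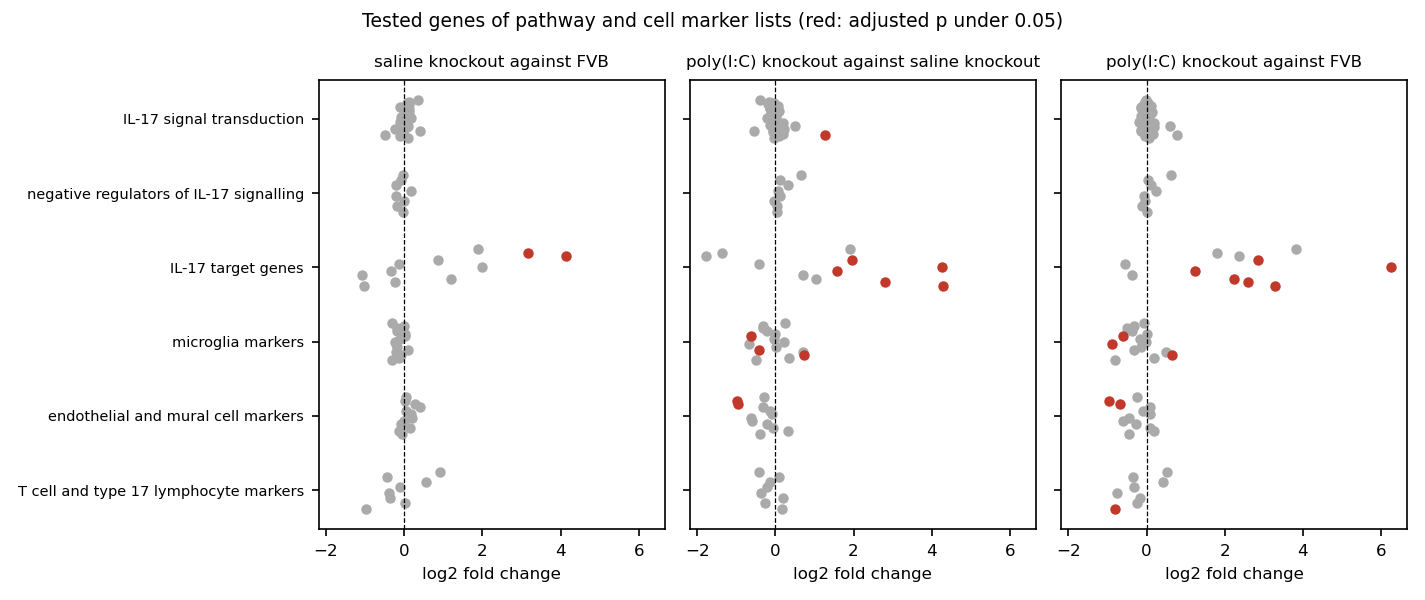
Log2 fold change of each tested gene of 3 IL-17 pathway lists and 3 cell marker lists in the 3 comparisons, with genes called at an adjusted p under 0.05 in red. The signal transduction genes and negative regulators cluster at 0, with Cebpd at 1.28 in the poly(I:C) comparison. There 5 of 11 tested IL-17 target genes (18 were listed) are called as higher, beside 1.81% of all tested genes.

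Markers of other cells moved with some of these results, and their part in them was not tested. The summed level of the 10 tested genes among 11 neutrophil and monocyte markers was 3.09 to 5.20 CPM in FVB, 8.81 to 38.1 CPM in the saline knockout and 7.40 to 17.5 CPM in the poly(I:C) knockout. Of these 10, S100a8, S100a9 and Ltf rose in the saline knockout against FVB, where 0.814% of all tested genes rose. None passed with poly(I:C) in the knockout, where the list's median log2 fold change was -1.31. There 5 were at an unadjusted p under 0.05, beside 15.5% of all tested genes. Ly6c2 rose in the poly(I:C) knockout against FVB, where 3.81% of all tested genes rose. Without the 3 libraries high in Ttr, S100a8, Ltf and Ly6c2 were called in the same comparisons. In bulk tissue, fewer cells of a type and less RNA per cell cannot be told apart.

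Of 12 endothelial and mural cell markers, Tek and Slco1a4 were called as lower with poly(I:C) in the knockout and none was called as higher. Of all tested genes 1.06% passed as lower there. The list's log2 fold changes ran from -0.97 to 0.32, with a median of -0.30. The highest was that of Cdh5 (adjusted p = 0.124). Tek, the angiopoietin receptor gene, fell from 19.8 ± 2.64 to 10.1 ± 1.85 CPM (log2 fold change -0.97, SE 0.124, adjusted p = 5.42e-05), in the comparison in which Il17rd fell. The summed level of the list was 398 to 517 CPM in FVB, 453 to 571 CPM in the saline knockout and 384 to 431 CPM in the poly(I:C) knockout. Tek and Slco1a4 were called without the 3 libraries high in Ttr as well.

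Of 15 microglia markers, C1qb rose, and P2ry12 and Csf1r fell, with poly(I:C) in the knockout (log2 fold changes 0.72, -0.62 and -0.41). In that comparison 1.81% of all tested genes passed as higher and 1.06% as lower. None of the 15 passed without the 3 libraries high in Ttr. The summed level was 166 to 195, 146 to 185 and 152 to 193 CPM in FVB, the saline knockout and the poly(I:C) knockout. The 9 tested genes of the choroid plexus list of 10, led by Ttr, summed to 35.4 to 98.5, 36.7 to 4435 and 24.0 to 2836 CPM, and none of the 9 passed in any of these comparisons. Of the other lists, 1 of 9 astrocyte markers (Aqp4, log2 fold change -0.36) fell with poly(I:C) in the knockout (not called without the 3 libraries, where Gfap was called as higher), and none of the 9 Purkinje cell, 8 granule cell and 8 meningeal markers passed there. The Purkinje and granule cell markers, which define cerebellar cortex, summed to 9150 to 11585 and 5935 to 7054 CPM over the 12 libraries.

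Most markers of the cells that make IL-17A were low. Of 18 T cell and type 17 lymphocyte markers 8 were tested, and none passed in the saline knockout against FVB or with poly(I:C) in the knockout. At an unadjusted p under 0.05 there were 3 and 0 in these comparisons, beside 12% and 15.5% of all tested genes. In the poly(I:C) knockout against FVB, where 7.05% of all tested genes passed, Cd28 fell (log2 fold change -0.81, SE 0.240, adjusted p = 0.0495). That call ended without the 3 libraries high in Ttr. Cd28 was also lower, without being called, in the saline knockout against FVB (log2 fold change -0.97, SE 0.243, adjusted p = 0.0514). With poly(I:C) in the knockout its log2 fold change was 0.16 (SE 0.246, adjusted p = 0.817). The T cell receptor subunit gene Cd3e had 10, 32 and 27 counts over the 4 libraries of FVB, saline knockout and poly(I:C) knockout, and the interleukin 23 receptor gene Il23r had 6, 2 and 8. Of the cytokines that drive type 17 cells, Il12b had 0 counts in all 12 libraries, and Il23a, a subunit of interleukin 23, was at 0.868 ± 0.0963, 1.00 ± 0.513 and 1.12 ± 0.197 CPM and was not called.

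Some genes varied across the 12 libraries much as single members did (Pearson's r of log2 CPM, which shares library depth and group differences, given without a p and with nothing implied on function). For Il17ra the 5 highest were Fgl2 (r = 0.931), Whrn (0.928), Cp (0.915), Scrg1 (0.905) and Cyp1b1 (0.891), and 0.816, 0.806, 0.837, 0.765 and 0.711 once group means were removed. For Il17rc they were Myo5c (0.921), Mphosph9 (0.888) and Cplane1 (0.883). For Il17d they were Camk2n2 (0.954), Phb2 (0.945) and Cisd1 (0.936), and for Traf3ip2 Atp7b (0.836), Isoc2b (0.832) and Det1 (0.825).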

How the data were processed

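Raw counts of reads per gene were deposited by the authors as 1 table of 57010 Ensembl genes by 12 libraries. The submitters' processing notes name Trim Galore, HISAT2, featureCounts and the build GRCm39. Their versions, settings and strand handling are not stated in the sources used here. Per the labels' protocols, total RNA was made into libraries with a TruSeq kit. Symbols came from GENCODE M21 (GRCm38) by Ensembl identifier (52029 genes named), as did exon lengths and overlaps.

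Counts were tested with edgeR 4.0.16 in R 4.3.3: TMM scaling, filterByExpr (minimum count 10, total 15), 3 group means over all 12 libraries (9 residual degrees of freedom) and a robust quasi-likelihood fit, with Benjamini-Hochberg adjustment over 19166 genes. On simulated data with changed genes the fit was tested before use. SE is the log2 fold change divided by the root of F. Correlations used log2 CPM with a prior count of 2. DESeq2 1.42.0, limma-voom 3.58.1, other scalings and filters, a replicate block, leaving out libraries and Ttr as a covariate were alternatives. All 9 members, 4 further ligands, the called genes of each pathway list and, for 4 members, the genes most like them were named by rule; Tnip1, Zc3h12a, Tek, Ccl20, Il6 and the markers were named as examples, some after their values were seen. One gene of the T cell and type 17 lymphocyte list is not reported here. The members and lists were chosen with earlier results of these data known.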

Additional observations from a re-analysis of the deposited data

Results flagged for a closer look

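In 27 groups of 4 libraries (8 members and Il25 in 3 groups), 3 held a library whose gap to the nearest other library was above Dixon's 95% critical value as a share of the group's range. Chance flags about 1 in 20 groups. Il17ra was at 14.8 CPM in saline knockout 1, with the other saline knockout libraries at 11.4 to 11.6 CPM. Traf3ip2 was at 5.01 CPM in poly(I:C) knockout 1, with the others at 6.21 to 6.32 CPM. Il25 was at 0.227 CPM in saline knockout 2, one of the libraries high in Ttr, with the others at 0.487 to 0.521 CPM.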

How the results depend on the processing

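The number of members called changed with the processing in each comparison. In the saline knockout against FVB it was 0 and became 1 with DESeq2, and leaving out each library in turn gave 0 to 0. In the poly(I:C) knockout against the saline knockout it was 1 and became 2 with DESeq2, without the low-count filter and at an adjusted p under 0.1, and 0 with limma-voom, with only the 2 groups compared and without the libraries with Ttr above 1000 CPM; leaving out each library gave 0 to 1. In the poly(I:C) knockout against FVB it was 0 and became 1 with DESeq2 and with log2 Ttr as a covariate and 2 at an adjusted p under 0.1; leaving out each library gave 0 to 2, with 2 without FVB 1 and 1 without saline knockout 4 or poly(I:C) knockout 2. The cause of these shifts was not tested.

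The replicate block gave 2 members called with poly(I:C) in the knockout, with Il17ra at an adjusted p of 0.0486, and changed no other call. No label says that the numbers pair the samples. Same-numbered libraries of different groups had correlations of -0.0987 to 0.145 once group means were removed, with 2 of 12 pairs over 0.1. Differently numbered pairs were not computed, so these values do not decide whether the numbers pair samples.

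Il17re in both knockout groups against FVB ranged from -0.69 to -0.50 when each library was left out. Some small differences changed sign. Without the libraries with Ttr above 1000 CPM and with log2 Ttr as a covariate these were, in that order, Il17rc in the saline knockout against FVB (-0.034 and -0.015), Il17re with poly(I:C) in the knockout (-0.112 and -0.019), Il17d (0.076 and 0.049) and Traf3ip2 (-0.061 and -0.028) in the poly(I:C) knockout against FVB, and, without those libraries, Traf6 in that comparison (-0.016). When each library was left out, the saline knockout against FVB spanned 0 for Il17ra (-0.174 to 0.0089), Il25 (-0.496 to 0.074), Il17rc (-0.057 to 0.143), Traf3ip2 (-0.033 to 0.117) and Il17rb (-0.041 to 0.278). So did Il17re (-0.104 to 0.077) and Traf3ip2 (-0.047 to 0.064) with poly(I:C) in the knockout, and Il17d (-0.191 to 0.049) and Traf3ip2 (-0.045 to 0.104) in the poly(I:C) knockout against FVB.

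Calls over all genes moved as well: 294 in the saline knockout against FVB became 636 with DESeq2 and 506 without the filter, and 156 to 300 when each library was left out; 550 with poly(I:C) in the knockout became 986 with DESeq2, 215 without the libraries high in Ttr and 347 to 689; and 1352 in the poly(I:C) knockout against FVB became 556 without those libraries and 791 to 1542. Leaving out libraries was not run for the untested ligands, whose counts are given per library.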

Other observations

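Il22, a cytokine gene of type 17 lymphocytes, had more counts than the T cell markers beside it. It was at 7.56 ± 1.05, 5.85 ± 1.08 and 6.71 ± 0.836 CPM (SD, n = 4) for FVB, saline knockout and poly(I:C) knockout, with 177 to 423 counts in each library and no gene over its exons in the annotation used. Its log2 fold change was -0.37 between genotypes (SE 0.154, adjusted p = 0.320) and 0.20 with poly(I:C) in the knockout (SE 0.154, adjusted p = 0.592). The T cell receptor constant gene Trac was at 2.10 ± 0.268, 1.55 ± 0.202 and 1.64 ± 0.436 CPM, while Cd3e had 0 to 11 counts per library. How reads that match several places were counted is not known from the labels, so the counts alone do not show that all of these reads came from Il22.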
